A study of Mus musculus with 2 samples.

Results

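Heat shock proteins and the chaperones of the cytosol were described in mouse embryonic stem cells of the E14 line with and without knockdown of Sin3a. The set was a list of 44 named genes out of 18193 genes on the array, and each gene was read from the probe set that carries its symbol alone and has the highest mean log2 signal over both arrays. Of the 44 genes, 41 had such a probe set. Hsp90ab1, Ptges3 and Hsf1 had none and were not analysed here. All 41 measured genes reached the filter on dim signals, which asks that the brighter value lie at or above the 60th percentile of its array. For 4 of them only 1 array reached it: Hspa1a, Hsf2 and Dnajb2 through shSin3a-1 alone and Dnaja4 through shCtrl alone, so these 4 had to differ between the arrays to some degree.

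The arrays came from cells at passage 9, kept on 0.1% gelatin in medium with 15% fetal bovine serum and leukemia inhibitory factor at 1000 U/ml. Lentivirus delivered a non-targeting shRNA to the shCtrl cells and an shRNA against Sin3a to the shSin3a-1 cells. Sin3a encodes the scaffold of a histone deacetylase complex. Both groups were selected with puromycin before total RNA was taken. Each group was 1 array and the knockdown rests on 1 shRNA, so no value below has an error over samples or a p-value. A difference is the log2 signal of shSin3a-1 minus that of shCtrl after each array was centred on its median. Centring raises every difference measured above the floor on both arrays, the floor being the 40th percentile of an array, by 0.11 over the deposited scaling, in which the array medians differed by -0.11 and the 75th percentiles by 0.0077. Signals are given as deposited, and all folds are after centring.

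Sin3a itself had signals of 3072 (shCtrl) and 534 (shSin3a-1), a log2 difference of -2.41, and 3 of 3 probe sets past the filter were lower. All 10 markers of mouse embryonic stem cells passed the filter. Their summed signal was 95647 (shCtrl) and 100831 (shSin3a-1), and Pou5f1 (8989 and 8619), Nanog (11657 and 11776) and Sox2 (10033 and 10874) were bright on both arrays. Of 10 fibroblast markers 3 passed the filter, Thy1 and Pdgfrb among them through shCtrl alone. The summed signal of the 10 was 851 and 493, and Col1a1, Col3a1, Postn, Dcn, Lum and Fap lay under the floor on both arrays. The summed signal of 6 primitive endoderm markers was 473 (shCtrl) and 917 (shSin3a-1), and 4 of them passed the filter. Only Dab2 (173 and 276) passed on both arrays. Gata6 (114 and 157), Sox17 (41.1 and 221) and Pdgfra (58.5 and 131) passed through shSin3a-1 alone, so they had to be higher there to some degree. The summed signal of 6 trophectoderm markers was 2763 and 1426, and the 3 that passed, Krt8, Krt18 and Tfap2c, were all lower in shSin3a-1. Below the filter, Cdx2 (8.61 and 70.0) and Eomes (83.5 and 89.0) were higher and Elf5 (37.4 and 27.7) was lower. The 3' to 5' signal ratio of GAPDH, a measure of intact RNA, was 0.824 (shCtrl) and 0.809 (shSin3a-1), and that of beta-actin was 1.46 and 1.33. The part of these other cell types in the values below was not tested, and in such bulk RNA a change in the share of a cell type and a change in RNA per cell cannot be told apart.

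Chaperones bind proteins that are not yet folded or have lost their fold. HSP70 proteins hold short stretches of such chains in a cycle of ATP hydrolysis, which HSP40 (DNAJ) proteins start and nucleotide exchange factors of the HSP110 and BAG families end, while HSP90 acts later on kinases, receptors and other clients with the help of co-chaperones. The ring-shaped TRiC complex folds actin and tubulin, and HSF1 raises the transcription of many of these genes through heat shock elements when proteins misfold. Pluripotent cells are known for high levels of several chaperones.

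Most of the chaperone genes differed little between the arrays. Of 41 genes, 35 lay within 1.5-fold, 6 were higher by 1.5-fold or more in shSin3a-1 and 0 were lower by that much. Among all 9782 genes past the filter, 10.2% were higher and 6.76% lower by 1.5-fold or more. At 2-fold or more, 2 of the 41 were higher, Hspa4l and Dnajb5, and 0 were lower, against 2.43% and 2.01% of all genes. The median log2 difference of the 41 genes was 0.09, beside 0.07 over all genes past the filter, and 28 of the 41 lay above 0, beside 58.8% of all genes. With the deposited scaling the medians were -0.02 and -0.03, 18 members lay above 0 (45.8% of all genes did), 4 members were higher and 0 lower by 1.5-fold or more, and the shares over all genes turned to 7.13% higher and 9.46% lower.

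The 6 higher genes were Hspa4l, Dnajb5, Hspa1b, Dnajb2, Hsf2 and Hspa1a, and 5 of them had dim probe sets. Of 9 members with a brighter value from the 60th up to the 75th percentile of its array, 5 were higher by 1.5-fold or more and 0 lower. Among these 5, Hspa1a, Hsf2 and Dnajb2 entered that range through shSin3a-1 alone, which leaves Hspa4l and Dnajb5. All genes in that range scattered widely in either direction, 14.5% of 2690 being higher and 15.5% lower by that size. Of the 37 members that passed the filter on both arrays, 3 were higher by 1.5-fold or more, which is 8.11% and close to the 8.75% of all 9050 such genes. At 2-fold these 37 held 2 higher genes, beside 1.48% of the 9050.

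The bright chaperone genes were close to equal on both arrays. For 27 members the brighter value lay at or above the 90th percentile, a signal of 1722 (shCtrl) and 1763 (shSin3a-1). Their log2 differences ran from -0.13 (Cdc37) to 0.40 (Hspb1), with the middle of the distribution, its 25th to 75th percentile, from -0.04 to 0.13. For all 3030 genes this bright the same span was -0.07 to 0.28. None of the 27 passed 1.5-fold in either direction, beside 7.33% of the 3030.

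**Figure D1:**
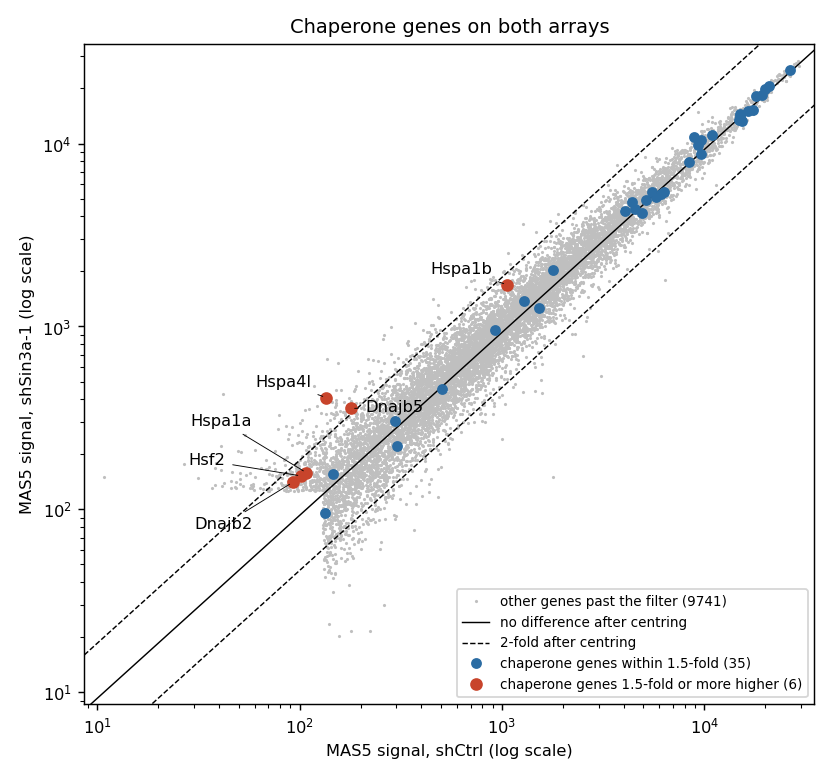
MAS5 signal of each gene in shCtrl (x axis) and shSin3a-1 (y axis), both on log scales, with 41 chaperone genes in colour over 9741 other genes past the filter in grey. The solid line marks no difference after centring and the dashed lines 2-fold; the 6 red genes lie above the solid line by 1.5-fold or more, Hspa4l furthest, and the bright genes at the upper right lie close to it.

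Hspa4l, an HSP110 protein that exchanges nucleotide on HSP70, differed most of the 41 genes. Its brightest probe set had a signal of 135 (shCtrl) and 408 (shSin3a-1), a 3.26-fold difference (log2 1.70, or 1.59 as deposited). The control value lay just over the filter signal of 131. A second probe set past the filter had 98.9 and 166 (log2 0.85). It passed through shSin3a-1 alone, so it had to be higher there to some degree. The other 3 probe sets of the gene did not reach the filter, with signals of 23.8 and 81.7, 55.8 and 123, and 79.1 and 94.2, so the shSin3a-1 signal was the higher in 5 of 5. In shCtrl the first of these 3 lay under the floor signal of 46.8. The related HSP110 genes lay near 0. Hspa4, a paralog with the same activity, had signals of 14908 and 13420 (log2 -0.04), and its 4 probe sets past the filter all lay below 0, down to -0.72. Hsph1, which encodes HSP105, had signals of 4545 and 4391 (log2 0.06, or -0.05 as deposited), with a second probe set at 0.43.

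The stress-inducible HSP70 genes Hspa1a and Hspa1b were higher in every probe set. Hspa1b had signals of 1060 (shCtrl) and 1690 (shSin3a-1), a 1.72-fold difference (log2 0.78, or 0.67 as deposited). Its other probe sets went from 584 to 821 (log2 0.60) and from 437 to 568 (log2 0.49), so 3 of 3 were higher by between 0.49 and 0.78. Hspa1a, read by 1 dim probe set, had 108 and 159 (log2 0.66, or 0.55 as deposited, which is under 1.5-fold). These genes lie near each other on chromosome 17 and are near-identical copies, so their probe sets can share RNA and the pair is uncertain as 2 separate measurements. The likeness extends to their promoters, shown here because both genes lay above 0. The windows are RefSeq sequences of build GRCm38.p6 from 250 bases before to 50 bases after the start of the gene, on the minus strand, at chr17:34972107-34972406 for Hspa1a and chr17:34959189-34959488 for Hspa1b. They share 296 of 300 bases, and capitals mark a pair of inverted heat shock element units that begins 104 bases before the start in both.
Hspa1a: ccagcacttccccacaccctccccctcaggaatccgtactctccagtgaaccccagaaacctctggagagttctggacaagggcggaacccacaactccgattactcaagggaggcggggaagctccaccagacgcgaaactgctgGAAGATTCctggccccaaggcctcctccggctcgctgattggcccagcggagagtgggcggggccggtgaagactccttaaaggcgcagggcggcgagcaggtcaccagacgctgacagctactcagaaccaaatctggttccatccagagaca
Hspa1b: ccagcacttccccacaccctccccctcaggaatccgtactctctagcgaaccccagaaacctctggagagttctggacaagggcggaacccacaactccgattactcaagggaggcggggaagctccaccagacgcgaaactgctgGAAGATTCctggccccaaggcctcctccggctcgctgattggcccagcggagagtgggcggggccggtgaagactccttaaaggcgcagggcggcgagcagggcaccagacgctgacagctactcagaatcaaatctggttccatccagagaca

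The other HSP70 genes lay near 0. Hspa8, the constitutive HSP70 of the cytosol, had signals of 26575 and 25295 (log2 0.04, or -0.07 as deposited). Its 4 probe sets past the filter ran from -0.64 to 0.16, and the dimmest of them, with 1302 and 775, was the lowest. Hspa9, the mitochondrial HSP70, had 9644 and 8775 (log2 -0.03). One of its dim probe sets went the other way, from 125 to 324 (log2 1.48), while the remaining 3 past the filter lay below 0, down to -0.42. Hspa14, a ribosome-associated HSP70, had 4407 and 4792 (log2 0.23), and Hspa2, which is known from male germ cells, had 296 and 304 (log2 0.15).

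HSP90 and its co-chaperones differed little between the arrays. In the brightest probe set all 7 measured genes lay between -0.13 and 0.09 on the log2 scale. With the deposited scaling all 7 lay below 0, from -0.24 to -0.02, and after centring 3 of 7 lay above it, so their direction depends on the scaling. Hsp90aa1, the stress-inducible HSP90 of the cytosol, had signals of 20873 and 20583 (log2 0.09), and its 3 probe sets past the filter ran from 0.09 to 0.19. Stip1, which links HSP70 to HSP90, had 5758 and 5105 (log2 -0.06). Ahsa1, which stimulates the HSP90 ATPase, had 6313 and 5416 (log2 -0.11). Cdc37, which brings kinases to HSP90, had 4922 and 4173 (log2 -0.13), although its dimmer probe set stood at 0.77. The immunophilin Fkbp4 was at -0.09, the HSP90 partner Chordc1 at 0.05 and the HSP70 partner St13 at 0.03. Other probe sets past the filter stood at -0.35 for Ahsa1, at 0.14 for Fkbp4 and at -0.46 and 0.38 for St13.

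The subunits of TRiC were also close to equal. The 7 measured subunits had signals between 9284 and 19989 in shCtrl and between 9844 and 19985 in shSin3a-1. Their log2 differences ran from -0.10 to 0.19, and 4 of 7 lay above 0 after centring but 1 of 7 (Cct8) as deposited. Cct4 had signals of 19989 and 19985, and 7 of its 7 probe sets past the filter lay above 0 after centring, from 0.06 to 0.80. As deposited they lay on both sides of 0, from -0.05 to 0.69. The highest was dim, with 96.3 and 156, and passed the filter through shSin3a-1 alone. Cct7 was the lowest, with 15386 and 13305 (log2 -0.10), and Cct8 the highest, with 9284 and 9844 (log2 0.19). Tcp1 (15042 and 14416), Cct2 (19303 and 18522), Cct5 (16493 and 15036) and Cct3 (17414 and 15323) lay between them, at 0.05, 0.05, -0.02 and -0.08.

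The mitochondrial chaperonin was close to equal as well. Hspd1, the HSP60 ring subunit, had signals of 18034 and 18223 (log2 0.12), and Hspe1, its HSP10 lid, had 14921 and 14181 (log2 0.04, or -0.07 as deposited).

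The HSP40 genes lay on both sides of 0. Their 9 members ran from -0.38 to 1.10 on the log2 scale, with 2 higher by 1.5-fold or more. Dnajb5, a class B HSP40 of the cytosol, had signals of 180 (shCtrl) and 356 (shSin3a-1), a 2.14-fold difference (log2 1.10, or 0.99 as deposited, just under 2-fold). Its probe sets disagreed: a second one, equally bright in shCtrl, had 183 and 169 (log2 -0.01), and another one, below the filter, had 71.0 and 108. The gene's 2-fold difference thus rests on 1 of 3 probe sets, an _s_at set, a suffix that marks sequence shared between transcripts. Dnajb2, an HSP40 that also binds ubiquitin, had 92.4 and 141 in its only probe set (log2 0.71, or 0.60 as deposited).

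The other 7 HSP40 genes lay within 1.5-fold in the brightest probe set. Dnajb1, the main stress-inducible HSP40, had signals of 1793 and 2039 (log2 0.29), with its other probe set at 0.34. Dnaja1 had 9591 and 10475 (log2 0.24), and 3 of 3 probe sets lay above 0. Dnaja2 had 10878 and 11065 (log2 0.13), with 4 of 4 above 0 after centring and a dim one, with 75.2 and 140, at 1.00. As deposited its probe sets ran from -0.10 to 0.89. Dnajb6, which holds back aggregation of proteins rich in glutamine, had 5513 and 5450 (log2 0.09, or -0.02 as deposited), and its 4 probe sets split evenly around 0. Below 0 lay the mitochondrial Dnaja3 with 1523 and 1254 (log2 -0.17), Dnajb4 with 303 and 223 (log2 -0.33) and Dnaja4 with 133 and 95.1 (log2 -0.38). Dnaja3 and Dnajb4 each had another probe set on the opposite side, at 0.56 and 1.12.

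**Figure D2:**
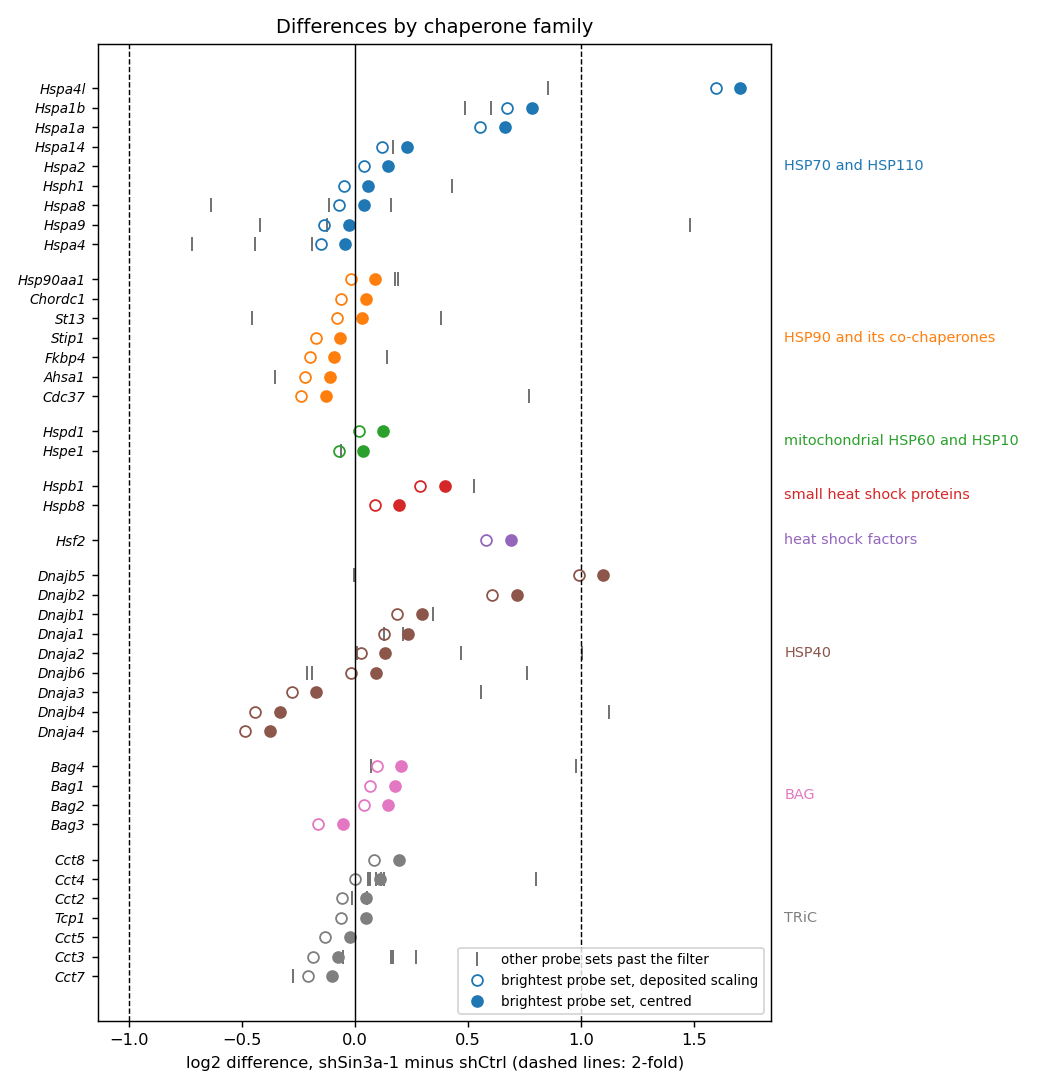
Log2 difference (shSin3a-1 minus shCtrl, x axis) of the 41 measured chaperone genes, grouped by family; filled circles are the brightest probe set after centring, open circles the same probe set with the deposited scaling, and vertical ticks the other probe sets past the filter. After centring, the brightest probe sets of the HSP90 and TRiC families run from -0.13 to 0.19, with other probe sets as far as -0.46 and 0.80, while Hspa4l (1.70) and Dnajb5 (1.10) alone pass the dashed 2-fold lines in the brightest probe set.

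The small heat shock proteins, the BAG genes and the measured heat shock factor completed the list. Hspb1, the small heat shock protein HSP25, which keeps unfolded proteins soluble without ATP, had signals of 8933 and 10913 (log2 0.40, or 0.29 as deposited), with its second probe set at 0.53; this was the highest value among the 27 bright members. Hspb8, the partner of BAG3 in selective autophagy, had 147 and 156 (log2 0.19). The nucleotide exchange factors Bag1 (4076 and 4269), Bag2 (927 and 952) and Bag4 (1283 and 1371) stood at 0.18, 0.15 and 0.20. A dimmer probe set of Bag4 went from 278 to 507 (log2 0.98). Bag3, which is stress-inducible, had 507 and 452 (log2 -0.05). Hsf2, a heat shock factor known for roles in development, had 102 and 152 in its only probe set past the filter (log2 0.69, or 0.58 as deposited, which is under 1.5-fold); its other probe set was under the floor in shCtrl, with 41.1, and had 43.5 in shSin3a-1.

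Probe sets of 1 gene gave a measure of how far readings under the same gene symbol can part, whether or not they read the same transcript. Of 26 members with 2 or more probe sets past the filter, 14 had all of them on the same side of 0 and 12 were split. The pooled SD of the log2 difference between probe sets of a gene was 0.41 over these 26 genes, close to 0.39 over 4413 genes of the array. This SD pools bright and dim probe sets and is no error over samples. Of 91 member probe sets past the filter, 5 were higher by 2-fold or more, beside 4.82% of all 17086 named probe sets past the filter. They belong to Hspa4l, Dnajb5, Hspa9, Dnajb4 and Dnaja2. Those of Hspa9, Dnajb4 and Dnaja2 passed through shSin3a-1 alone, with shCtrl signals of 125, 85.2 and 75.2, so they had to be higher there to some degree. Of the 91, 0 were lower by 2-fold or more, and the share of lower ones among all probe sets was not counted.

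**Figure D3:**
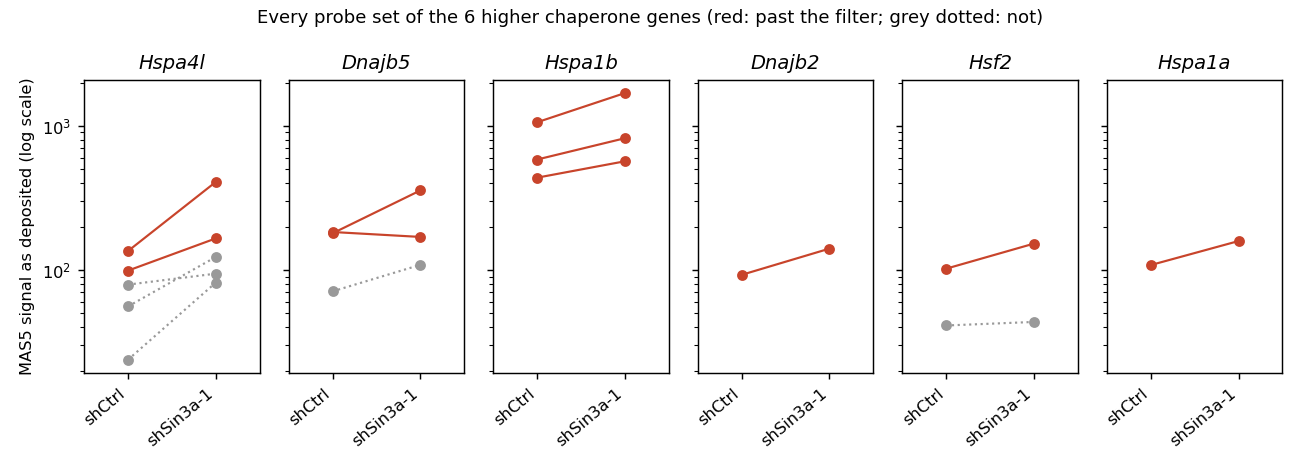
MAS5 signal as deposited (y axis, log scale) in shCtrl and shSin3a-1 for every probe set of the 6 chaperone genes higher by 1.5-fold or more; red lines join probe sets past the filter and grey dotted lines those below it. All lines of Hspa4l and Hspa1b slope upward, whereas 1 of the 2 red lines of Dnajb5 is flat.

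Sequence matches to heat shock elements, the binding sites of the heat shock factors, were common in the promoters of these genes. Of 35 measured members with a window, 18 (51.4%) had no match, beside 86.5% of 8029 genes past the filter. Of the 6 higher members, 4 were among these 18. A pair of inverted units was searched as GAANNTTC or TTCNNGAA, each of which is its own reverse complement, in RefSeq windows of 300 bases (build GRCm38.p6). A gene was counted as having the pair if any of its windows held it, which gives genes with several annotated starts more chances. Of 36 members with a window, 35 were measured, and 17 of these (48.6%) had the pair, beside 13.5% of 8029 genes past the filter and 15.1% of all 32851 windows. A search for at least 3 alternating units, that is a pair followed after 2 further bases by the third unit in the direction of the first, found 5 of the 35 members and 45 of the 8029 genes (0.56%). A match is a run of letters and not a shown site of binding. A missing match is likewise not a shown absence of an element: the stress-inducible Dnajb1 had none in its 2 windows. The list held 8 members without a window, Hspa8 and Hsp90aa1 among them.

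The median log2 difference was 0.05 over the 17 members with the pair and 0.15 over the 18 without it. Over all genes past the filter the medians were 0.09 with and 0.07 without. The 5 members with at least 3 units were Hsph1, Chordc1, Hspd1, Hspe1 and Dnajb6, and their brightest probe sets ran from 0.04 to 0.12. All 5 are among the 27 bright members, while members without a pair include dim ones such as Hspa4l, Dnajb5, Dnajb2 and Hsf2. Other probe sets past the filter stood at 0.43 for Hsph1, at -0.06 for Hspe1 and between -0.21 and 0.76 for Dnajb6, and all 45 genes with at least 3 units ran from -1.10 to 0.99. Of the 6 higher members, Hspa1a and Hspa1b had the pair, while Hspa4l, Dnajb5, Dnajb2 and Hsf2 had none in these windows. That is 2 of 17 members with the pair (11.8%) and 4 of 18 without it (22.2%). Over all genes past the filter, 10.8% with the pair and 9.82% without it were higher by 1.5-fold or more. Among the 6, Hspa1a, Dnajb2 and Hsf2 had passed the filter through shSin3a-1 alone. Members without a pair also lay near 0, among them Hspa4 (-0.04), Tcp1 (0.05) and Cct3 (-0.08). The next 5 windows are shown as examples, picked after the values were seen: Hspe1 (chr1:55087898-55088197, plus strand), which lies head to head with Hspd1, and Hsph1 (chr5:149636287-149636586, minus strand) have at least 3 units and near-equal signals in the brightest probe set. In Hsph1 the 3 units lie after the start of the gene, and a separate pair begins 33 bases before it. Hspb1 (chr5:135887669-135887968, plus strand) has 2 separate pairs, and Hspa4l (chr3:40745363-40745662, plus strand) and Dnajb5 (chr4:42949617-42949916, plus strand) have the largest differences and no pair. Capitals mark every pair, and overlapping pairs form 1 longer run.
Hspe1: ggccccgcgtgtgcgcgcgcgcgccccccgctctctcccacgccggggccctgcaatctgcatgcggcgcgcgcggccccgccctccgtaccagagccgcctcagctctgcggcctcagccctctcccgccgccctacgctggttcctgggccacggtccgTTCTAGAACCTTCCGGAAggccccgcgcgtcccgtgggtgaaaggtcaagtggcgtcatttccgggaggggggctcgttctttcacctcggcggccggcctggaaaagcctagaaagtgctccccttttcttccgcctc
Hsph1: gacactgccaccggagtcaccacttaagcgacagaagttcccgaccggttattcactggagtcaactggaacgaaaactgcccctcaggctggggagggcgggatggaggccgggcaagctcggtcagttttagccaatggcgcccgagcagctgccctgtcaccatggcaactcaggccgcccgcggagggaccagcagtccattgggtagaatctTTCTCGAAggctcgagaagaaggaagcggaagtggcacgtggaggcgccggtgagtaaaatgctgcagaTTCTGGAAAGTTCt
Hspb1: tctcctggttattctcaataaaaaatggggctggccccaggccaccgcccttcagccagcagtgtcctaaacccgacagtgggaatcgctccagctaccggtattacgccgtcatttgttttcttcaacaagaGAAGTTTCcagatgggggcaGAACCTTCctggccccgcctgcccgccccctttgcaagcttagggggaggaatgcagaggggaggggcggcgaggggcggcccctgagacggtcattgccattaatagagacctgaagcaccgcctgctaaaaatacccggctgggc
Hspa4l: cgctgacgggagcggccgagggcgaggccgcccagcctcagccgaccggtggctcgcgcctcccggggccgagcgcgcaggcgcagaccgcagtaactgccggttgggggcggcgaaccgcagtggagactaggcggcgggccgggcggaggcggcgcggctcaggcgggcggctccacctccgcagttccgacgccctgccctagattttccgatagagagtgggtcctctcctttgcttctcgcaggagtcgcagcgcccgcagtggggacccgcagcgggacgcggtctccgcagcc
Dnajb5: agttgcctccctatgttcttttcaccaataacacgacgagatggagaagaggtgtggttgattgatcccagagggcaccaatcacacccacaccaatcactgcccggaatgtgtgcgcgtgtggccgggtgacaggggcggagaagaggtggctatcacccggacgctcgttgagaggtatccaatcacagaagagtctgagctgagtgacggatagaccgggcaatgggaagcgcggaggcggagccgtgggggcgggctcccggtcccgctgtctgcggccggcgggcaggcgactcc

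**Figure D4:**
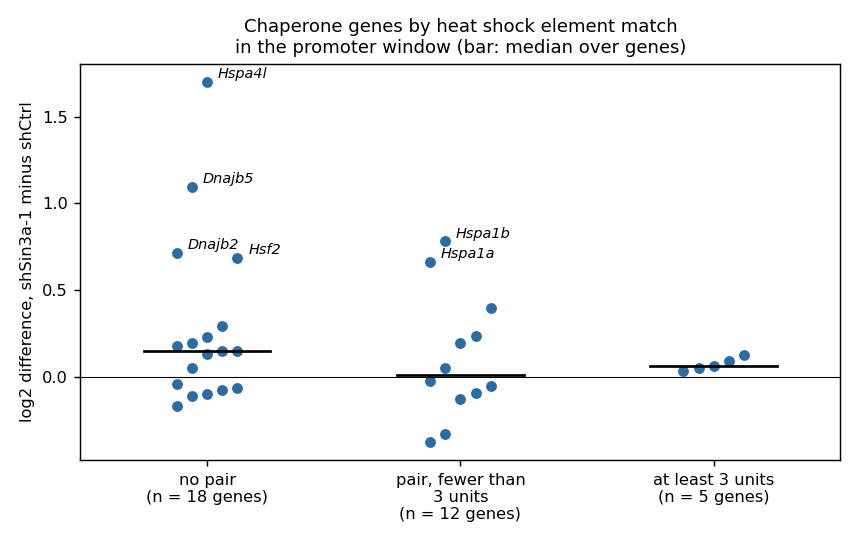
Log2 difference (shSin3a-1 minus shCtrl, y axis) of 35 chaperone genes by heat shock element match in their promoter windows: no pair (18 genes), a pair but fewer than 3 alternating units (12 genes) and at least 3 units (5 genes); points are genes and bars medians over genes. The medians are 0.15, 0.01 and 0.06, and the 3-unit genes lie closest together.

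A further list of 92 related genes covered the remaining DNAJ proteins, prefoldin, chaperones of the endoplasmic reticulum and mitochondria, and HSP90 and tubulin cofactors. Of these, 88 were measured and 74 passed the filter. Of the 74, 5 were higher and 3 lower by 1.5-fold or more (6.76% and 4.05%), shares below the 10.2% and 6.76% of all genes. Their median log2 difference was 0.11, or 0.01 as deposited. Dnajc1, a DNAJ protein of the endoplasmic reticulum membrane, was the only one at 2-fold or more after centring, with signals of 166 and 386 (log2 1.32) and a second probe set at 2.12. Dnajb14 (150 and 253, log2 0.86), Dnajc25 (126 and 179, log2 0.61), Dnajc10 (2381 and 3362, log2 0.61) and Hspa13 (1647 and 2319, log2 0.60) were the other higher genes. Dnajc25 passed the filter through shSin3a-1 alone. Of 72 related genes past the filter on both arrays, 4 were higher by 1.5-fold or more. That is 5.56%, beside 8.75% of all 9050 such genes. All 3 probe sets of Dnajc10, a reductase of the endoplasmic reticulum, and all 4 of Hspa13, an HSP70 of microsomes, lay above 0. With the deposited scaling Dnajc25 (0.51), Dnajc10 (0.50) and Hspa13 (0.49) fell short of 1.5-fold.

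On the lower side, Dnajc17, a DNAJ protein of the nucleus, had signals of 2719 and 1262 (log2 -0.998, or -1.11 as deposited, which is past 2-fold). Its other probe set past the filter was at -0.12, and the mean of all 3 of its probe sets was -0.997. Bag6, which guards new tail-anchored proteins, had 991 and 530 (log2 -0.79) in its only probe set, and Dnajc22 had 245 and 145 (log2 -0.65). The TRiC subunit Cct6a, with 18292 and 16953 (log2 -0.0011), lay within the range of the other 7 subunits. The prefoldin genes, which hand unfolded chains to TRiC, also differed little: Pfdn1, Pfdn2, Pfdn4, Pfdn5, Pfdn6 and Vbp1 stood at 0.26, 0.32, 0.15, 0.12, -0.10 and 0.12.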

How the data were processed

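One array per group, shCtrl and shSin3a-1, was compared; groups came from the shRNA in the labels. The authors deposited linear intensity values per probe set. The submitters' processing notes name MAS5 and Affymetrix Expression Console as the tools, without versions, and detection calls were not used here. Both arrays had a trimmed mean of 500.0 as deposited. MAS5 subtracts mismatch signal, so ratios of dim probe sets scatter widely. The number of arrays limits the precision.

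Of 45101 probe sets, 64 controls were left out; 34945 had 1 symbol in the platform annotation, 932 several and 9160 none, and 34741 of the first were updated through Entrez identifiers (RefSeq, GRCm38.p6). Signals were taken to log2, centred on each array's median and floored at the 40th percentile; 9782 of 18193 genes reached the 60th percentile on at least 1 array. With no replicates, no test was run. Genes were counted at 1.5-fold and 2-fold. The 10 alternatives concerned scaling, choice of probe set, filter, floor and an offset of 16 before log2. The procedure was tested on simulated data. Named were every member, Sin3a, Pou5f1, Nanog and Sox2, and up to 5 related genes per direction at 1.5-fold or more; Cct6a, the prefoldin genes and genes in the closing section were chosen after their values were seen. The members and lists were chosen with earlier results of these data known. Python 3.11.15, numpy 2.4.6, pandas 2.3.3 and, for loess, statsmodels 0.14.6 were used.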

Additional observations from a re-analysis of the deposited data

How the results depend on the processing

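The results were recomputed under 10 alternatives. The median log2 difference of the members was -0.020 with the deposited scaling and -0.028 with scaling on the 75th percentile, against 0.09 after centring, since those scalings do not raise the shSin3a-1 array. Members higher by 2-fold or more, 2 after centring, numbered 1 with the deposited scaling (1.70% of all genes), 1 with scaling on the 75th percentile (1.59%), 1 with the mean of all probe sets (3.32%), 0 with probe sets without a suffix (2.75%) and 0 with the filter at the 75th percentile (1.40%). With that stricter filter 1 member, Hspa1b, was higher by 1.5-fold or more (8.56% of all genes), against 6, as fewer genes were tested. Without suffixed probe sets 1 member was lower by 1.5-fold or more (6.92% of all genes), against 0: Hspa8, at -0.64 in its remaining probe set. Dnajb5 reversed to -0.0052 there. The 8 values of single members that moved by more than the SD between probe sets all lay among 75 values under the 2 probe set alternatives, among them Hspa4l, at 0.85 without suffixed probe sets and at 1.21 in the mean of all, which is taken before the floor. The filters and the floor leave a kept member's value as it is, and the deposited and 75th percentile scalings shift all members alike, so they could not have shown such a move. Over the alternatives Hspa1b ran from 0.49 to 0.78 and Hspa1a from 0.55 to 0.66 where they passed the filter. Quantile and loess scaling gave medians of 0.01 and 0.01. No paired analysis was possible because each group had 1 array.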

Other observations

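Some genes for folding in the endoplasmic reticulum are given here as values. Dnajc3, which encodes the co-chaperone P58IPK, had signals of 1287 (shCtrl) and 1786 (shSin3a-1) (log2 0.58), and 4 of its 4 probe sets past the filter lay above 0. Dnajb11, a DNAJ partner of BiP, had 1336 and 1655 (log2 0.42). BiP itself, Hspa5, had 13251 and 13034 (log2 0.08, or -0.02 as deposited), Hsp90b1 had 11487 and 11296 (log2 0.08), with a second probe set at 0.59. Hyou1 had 2604 and 2187 (log2 -0.14), but 2 of its 3 probe sets past the filter lay above 0, up to 1.29. Dnajb9, a stress-induced DNAJ of the same compartment, had 949 and 1021 (log2 0.21). These genes were picked by compartment after their values were seen, and no test was made of them.

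Unc45a, a chaperone of myosin that binds HSP90, lay below 0 in 3 of 3 probe sets past the filter, from -1.02 to -0.41. Hmox1, a gene induced by oxidative and heat stress in many cells, had signals of 469 on both arrays (log2 0.11, which is the centring shift). Serpinh1, the collagen chaperone HSP47, had 880 and 697 (log2 -0.23), with a second probe set at -0.76.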
